A study of Bos taurus with 6 samples.

Results

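bta-miR-744, bta-miR-197, bta-miR-339a, bta-miR-769, bta-miR-505 and bta-miR-339b are 6 of the 1028 mature bovine miRNAs in the table of extracellular vesicle (EV) small RNA. The first 5 were chosen by their levels, which were lower in EVs of heat stressed (HS, 42 °C) than of thermoneutral (37 °C) oviductal organoids, and for lying outside the imprinted and X-linked miRNA clusters, and bta-miR-339b was added as the paralog of bta-miR-339a. The values that chose them are those of the comparison between temperatures, so that comparison is given below as a description. Counts of these miRNAs among the calls of fits over all miRNAs are part of that description, and nothing is read from them. Of the 6, 5 had a mean of at least 10 CPM (reads per 1000000 reads after TMM adjustment, the unit of the table) at 1 temperature or both, as did 251 miRNAs in all, while bta-miR-339b did not reach it.

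Oviductal organoids are three-dimensional cultures of the epithelial cells that line the oviduct, and EVs are the membrane-enclosed particles they release into the medium. 3 libraries were made from EVs of organoids that spent their final culture day at 42 °C, and 3 from EVs of organoids that stayed at 37 °C. All organoids came from diestrus oviducts of slaughterhouse cattle, were grown at 37 °C through 1 passage and then moved to a synthetic matrix, and each library was a pool of 2 animals. The same oviducts were used at both temperatures, but no source ties a library to its animals, so the libraries were treated as unpaired and the spread is that between pools. Where values are listed by temperature, they follow the order of replicates A, B and C.

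miRNAs are short RNAs that guide Argonaute proteins to messenger RNAs, mostly through pairing of the seed near their 5′ end, and lower the output of those messages. Many are made in groups from 1 long transcript, whereas others have a transcription unit of their own or are cut from an intron of a protein-coding gene. In EVs, miRNAs are carried outside the cell and can reach other cells, in the oviduct also the gametes and the early embryo. In bulk EV RNA, fewer vesicles that carry a miRNA and fewer copies per vesicle cannot be told apart. Mature sequences were not used here, so seeds were not compared.

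Whether these miRNAs lie apart from others was checked in RefSeq's genes of ARS-UCD2.0, used only for names and for the order of genes. All 6 miRNA genes matched 1 entry each. MIR744 lies within the span of MAP2K4, a kinase that activates the stress kinases JNK and p38, and its nearest other miRNA entry, MIR2339, is 7 entries away. MIR197 lies within the span of AMPD2, an AMP deaminase, between the entries of GNAT2 and GNAI3, and 12 entries from the nearest miRNA, MIR2413. MIR505 lies on the X chromosome, 66 entries from MIR424 and 67 from MIR503 of the X-linked cluster, and 9 from its nearest miRNA, MIR504. MIR769 lies in no gene span, between CCDC61 and PGLYRP1, an antibacterial protein of neutrophil granules, and 18 entries from MIR330. MIR339B lies within MYO1F, a myosin known from leukocytes, and 21 entries from MIR10178. MIR339A, within the span of C25H7orf50, is the exception: its neighbouring entry is another miRNA gene, MIR2389. bta-miR-2389 had no read in any of the 6 libraries, and bta-miR-504, the nearest miRNA of MIR505, had 3, 1 and 0 reads at 42 °C, against 0, 3 and 1 at 37 °C. The gene table gives no strand, so whether a miRNA shares a transcript with the gene around it was not tested.

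The depth behind the values was low. Every value above 0 was a whole multiple (within 0.01) of the smallest value of its library, so the miRNA reads could be recovered, from 72580 to 213877 per library at 42 °C and from 31640 to 150214 at 37 °C. 1 read was worth between 5.53 and 28.7 CPM at 42 °C and between 5.87 and 17.0 CPM at 37 °C. Where no read was found, up to 3 may have been missed, which is 86.2 CPM in replicate C at 42 °C and 16.6 CPM in replicate B at 42 °C. All intervals below are at 95% and, like this limit, cover counting error only. bta-miR-1246 took from 26.7 to 71.8% of the reads at 42 °C and from 25 to 50.0% at 37 °C, so levels are also given per 1000000 reads other than this miRNA. On that scale 6 epithelial miRNAs (the miR-200 family and miR-205) together held 14615 to 53185 at 42 °C and 30155 to 44808 at 37 °C. Of 5 miRNAs of multiciliated cells, bta-miR-449b and bta-miR-449c were at 0 in every library, and the sum was 102 to 342 at 42 °C and 253 to 652 at 37 °C. All 6 leukocyte miRNAs had reads, with a sum of 6223 to 22703 at 42 °C and 3557 to 4593 at 37 °C. This sum is not split by miRNA here and could rest on 1 abundant member. It therefore does not show that the leukocyte miRNAs were higher at 42 °C as a group. The sums of 3 erythroid miRNAs (31241 to 201058 at 42 °C, 34468 to 91216 at 37 °C), of the liver miRNA bta-miR-122 (18094 to 111446 and 35423 to 48704) and of 6 stromal miRNAs (6835 to 22459 and 5796 to 18203) overlapped between temperatures. The part of the leukocyte miRNAs in the lower values described here was not tested.

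bta-miR-744 was the most abundant of the 6 and the only one with reads in every library. In human cells miR-744 is known to repress the growth factor TGFB1. The libraries at 42 °C held 26, 46 and 3 reads, against 38, 82 and 72 in those at 37 °C. Its levels were 207, 255 and 86.2 CPM at 42 °C and 646, 482 and 532 CPM at 37 °C. The highest value at 42 °C was below the lowest at 37 °C, and replicate C at 42 °C was the lowest library, at a point where 3 reads carry the value and the exact Poisson interval runs from 17.8 to 252 CPM. The means were 182 ± 86.8 CPM (SD, n = 3) at 42 °C and 553 ± 84.3 CPM (SD, n = 3) at 37 °C. The log2 fold change was -1.66 (standard error 0.54, limma on log2(CPM + 10)), and -1.22 without replicate C at 42 °C. Pooled over libraries, the ratio of 42 to 37 °C was 0.417 (exact counting interval 0.315 to 0.547). By mean level bta-miR-744 ranked 107 among all miRNAs at 42 °C and 70 at 37 °C.

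bta-miR-197 was next in abundance. In human lung cancer cells miR-197 is known to repress the tumour suppressor TUSC2 (FUS1). It had 1, 0 and 2 reads at 42 °C, against 4, 21 and 13 at 37 °C. The levels were 7.95, 0 and 57.4 CPM at 42 °C and 68.0, 123 and 96.0 CPM at 37 °C. The groups did not overlap, but the closest libraries, replicate C at 42 °C and replicate A at 37 °C, were parted by 2 reads against 4, with exact Poisson intervals from 6.96 to 207 CPM and from 18.5 to 174 CPM. The means were 21.8 ± 31.1 CPM (SD, n = 3) at 42 °C and 95.8 ± 27.7 CPM (SD, n = 3) at 37 °C. The log2 fold change was -2.17 (standard error 0.86, limma), -2.95 without replicate C at 42 °C and -1.57 without replicate B at 42 °C. The pooled ratio of 42 to 37 °C was 0.0843 (exact counting interval 0.0166 to 0.266), from 3 reads against 38.

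**Figure D1:**
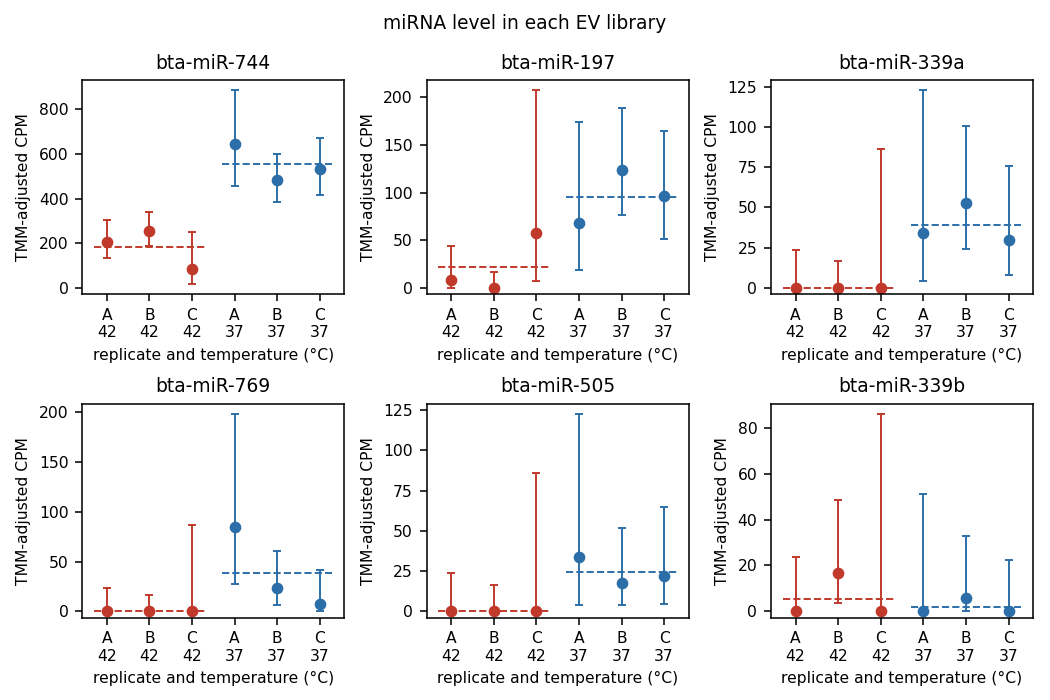
Level of each miRNA (TMM-adjusted CPM, vertical axes scaled per miRNA) in the libraries A, B and C at 42 °C (red, left) and at 37 °C (blue, right); points are libraries, bars exact Poisson intervals of the reads at 95% (from 0 to the value of 3 reads where no read was found) and dashed lines group means. bta-miR-744 and bta-miR-197 lay lower in each library at 42 °C, bta-miR-339a, bta-miR-769 and bta-miR-505 had no read there, and bta-miR-339b had reads in 1 library of each temperature.

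bta-miR-339a, bta-miR-769 and bta-miR-505 had no read at 42 °C, whereas each of the 3 libraries at 37 °C held at least 1. Of the 251 miRNAs tested, 8 (3.19%) had this pattern and 1 (0.398%) had the reverse, with reads throughout at 42 °C only. As absence at 42 °C is part of why these were chosen, their count is not set against that share. The bounds and intervals below take libraries together and make no allowance for this choice. In single libraries at 42 °C the limit of 3 reads was 23.8, 16.6 and 86.2 CPM. No level of these miRNAs at 37 °C exceeded that of replicate C, so its zeros alone do not show lower levels.

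For bta-miR-339a, whose human counterpart miR-339 is known to repress the adhesion molecule ICAM1 and the p53 inhibitor MDM2, there were 0, 0 and 0 reads at 42 °C, against 2, 9 and 4 at 37 °C. The levels at 37 °C were 34.0, 52.9 and 29.6 CPM, a mean of 38.8 ± 12.4 (SD, n = 3). Replicate B at 37 °C was highest, and all 3 intervals overlapped. Taking 3 reads as the limit for the 42 °C libraries together, and the level at 37 °C as measured, it was at least 4.68-fold lower at 42 °C (7.06-fold on the scale without bta-miR-1246). With counting error in both groups, the exact interval of the fold begins at 3.36 (5.06 on that scale).

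bta-miR-769 had no read in the 3 libraries at 42 °C, against 5, 4 and 1 at 37 °C. It was the most uneven of the 5 chosen miRNAs at 37 °C, with 85.0, 23.5 and 7.39 CPM and a mean of 38.6 ± 41.0 (SD, n = 3). The exact Poisson interval of replicate A, from 27.6 to 198 CPM, still overlapped that of replicate C, from 0.187 to 41.2 CPM. On the same limit, bta-miR-769 was at least 3.12-fold lower at 42 °C (4.71-fold on the scale without bta-miR-1246), and with counting error in both groups the exact interval begins at 2.10 (3.17 on that scale). Its fitted log2 fold change of -1.93 (standard error 0.78, limma) became -1.27 without replicate A at 37 °C, where its level was highest.

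bta-miR-505, known in mouse fibroblasts to repress the splicing factor SRSF1, had no read in the 3 libraries at 42 °C, against 2, 3 and 3 at 37 °C. The levels at 37 °C were 34.0, 17.6 and 22.2 CPM, a mean of 24.6 ± 8.46 (SD, n = 3), close to each other in reads. With the same limit and the level at 37 °C as measured, it was at least 2.50-fold lower at 42 °C (3.77-fold on the scale without bta-miR-1246). With counting error in both groups the exact interval begins at 1.60 (2.41 on that scale), the lowest of the 3, and 8 reads in all lie behind the level at 37 °C.

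The fitted log2 fold changes of bta-miR-339a (-2.26, standard error 0.70) and bta-miR-505 (-1.76, standard error 0.68) in limma, like that of bta-miR-769, depend on the pseudocount of 10 CPM and are no bounds. With a pseudocount of 1 CPM, the fitted values of bta-miR-339a, bta-miR-769 and bta-miR-505 were -5.27, -4.70 and -4.63, and with 50 CPM they were -0.82, -0.73 and -0.57.

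bta-miR-339b, the paralog of bta-miR-339a, was close to the limit of detection at both temperatures. It had 0, 3 and 0 reads at 42 °C, against 0, 1 and 0 at 37 °C, or 0, 16.6 and 0 CPM against 0, 5.87 and 0 CPM. Both totals lie within the limit of 3 reads, so no fold is given and a difference was not detectable at this depth. The library with its 3 reads at 42 °C was replicate B. Reads that fit both miR-339 copies may have been split or assigned to either, and how the counting treated them is not given in the sources used here. Summed, the copies had 0, 3 and 0 reads at 42 °C, against 2, 10 and 4 at 37 °C, and the levels of 0, 16.6 and 0 CPM remained below those of 34.0, 58.7 and 29.6 CPM. The closest libraries, replicate B at 42 °C and replicate C at 37 °C, were parted by 3 reads against 4. Their exact Poisson intervals, from 3.42 to 48.5 CPM and from 8.05 to 75.7 CPM, overlapped. In replicate C at 42 °C the limit of 3 reads, 86.2 CPM, was above every summed level at 37 °C. The log2 fold change of the sum was -1.83, against -2.26 for bta-miR-339a alone.

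The reads found at 42 °C can be set against the number that the pooled level at 37 °C would give at the depth of the 42 °C libraries. For bta-miR-744, 75 reads were found where that level gives 180, and for bta-miR-197, 3 where it gives 35.6. For bta-miR-339a, bta-miR-769 and bta-miR-505, 0 were found where it gives 14.1, 9.37 and 7.49. For bta-miR-339b, 3 were found where it gives 0.937. The 5 chosen miRNAs had fewer reads than this number, and bta-miR-339b exceeded it by about 2 reads.

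**Figure D2:**
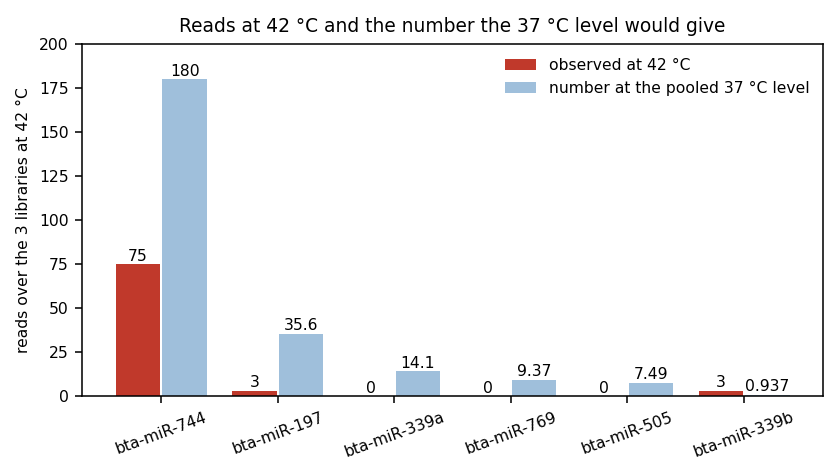
Reads of each miRNA summed over the 3 libraries at 42 °C (red) and the number that the pooled 37 °C level would give at their depth on the deposited scale (light blue), with the values above the bars. bta-miR-744 has 75 reads against 180 and bta-miR-197 3 against 35.6, and the 3 miRNAs without a read stand against 7.49 to 14.1.

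Among the 251 miRNAs tested, all 3 values at 42 °C lay below all 3 at 37 °C for 36 (14.3%), and above for 25 (9.96%). The 5 chosen miRNAs that passed the filter were all among the 36, as the choice fixed. In limma, 6 of the 251 (2.39%) were called at an adjusted p under 0.05 and at least 2-fold, 2 of them (0.797%) lower at 42 °C. The count of the 5 among these calls was 0. An unadjusted p under 0.05 was given to 44 of the 251, and edgeR and DESeq2 on the recovered reads called 11 and 17 miRNAs, with 0 of the 5 among them. The share called in either direction was 4.38% in edgeR and 9.19% of 185 in DESeq2, and the share called lower was 1.2% and 3.24%. In DESeq2, bta-miR-339a, bta-miR-769 and bta-miR-505 were given no adjusted p. From the lowest fold change upwards, bta-miR-339a stood at place 10, bta-miR-197 at 11, bta-miR-769 at 13, bta-miR-505 at 19 and bta-miR-744 at 23. The median log2 fold change of the 5 was -1.93, or -1.66 with the 3 that had no read at 42 °C placed at their bounds, beside -0.01 over all 251. The bounds come from pooled reads and the remaining values from limma, so -1.66 mixes unlike measures. The places and medians of the 5 follow largely from the choice, and nothing is read from them.

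**Figure D3:**
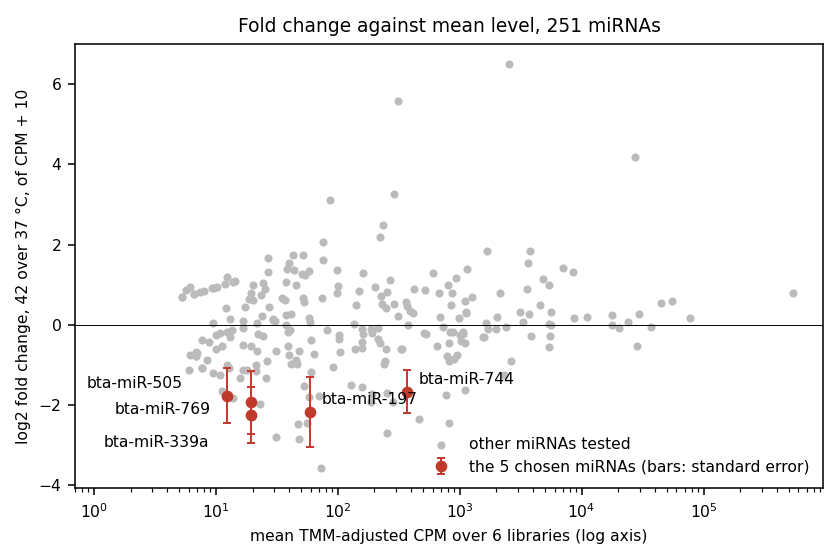
log2 fold change of CPM + 10 (42 over 37 °C) against the mean level over the 6 libraries (log axis) for 251 miRNAs, with the 5 chosen miRNAs that passed the filter in red (bars are standard errors). They lie between -2.26 and -1.66, bta-miR-744 at a mean of 368 CPM and the others between 12.3 and 58.8 CPM, with other miRNAs around and below them.

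The scale of the values bears on these numbers. When libraries were scaled to sum to 1000000, the median over all miRNAs tested moved to a log2 fold change of -0.57, and without bta-miR-1246 in that sum to -0.43. bta-miR-744 had log2 fold changes of -2.29 and -2.16 on these scales, which relative to those medians are -1.72 and -1.73, against -1.65 on the deposited scale. bta-miR-197 stood at -2.15 and -2.40 relative to the medians, against -2.16. The miRNAs without a read at 42 °C shifted more. Relative to the medians, bta-miR-339a stood at -1.98 and -2.79, against -2.25. The values of bta-miR-769 were -1.67 and -2.37, against -1.92, and those of bta-miR-505 -1.47 and -2.22, against -1.75. The medians are over 259 and 290 miRNAs, against 251. Over all miRNAs, limma called 16 of 259 (6.18%) lower at 42 °C on the first of these scales and 11 of 290 (3.79%) on the second, and 1.99% of the 251 without the intensity trend. The share called lower was 0% and 0.797% with pseudocounts of 1 and 50 CPM, 0.293% with no filter, 1.2% with a minimum mean of 50 CPM, which only bta-miR-744 and bta-miR-197 of the 6 reached, and 2.39% with the replicate letters as a block.

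**Figure D4:**
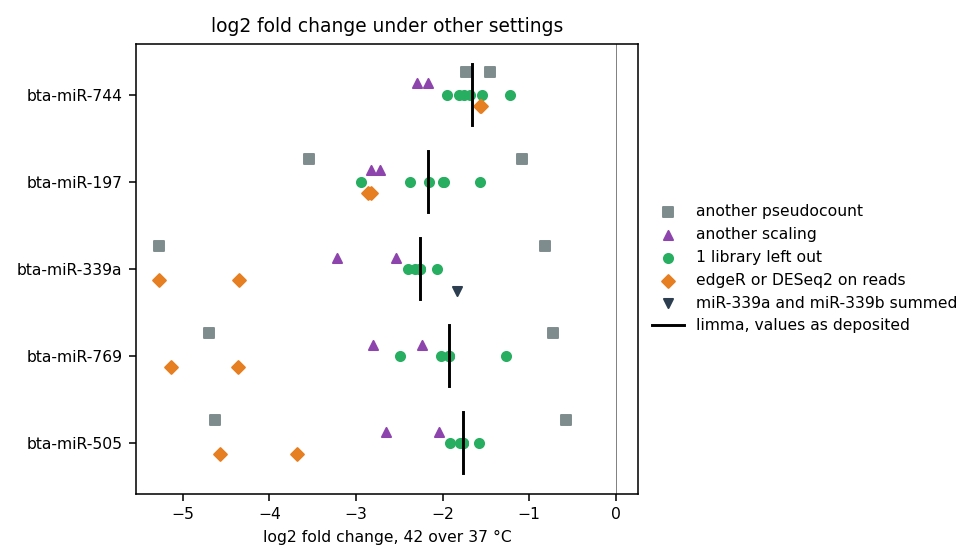
log2 fold change (42 over 37 °C) of the 5 chosen miRNAs that passed the filter, as fitted by limma on the deposited values (black line) and under other settings (symbols). All values lie below 0, which the choice largely fixed. Those of bta-miR-744 run from -2.29 to -1.22, whereas those of bta-miR-339a, without a read at 42 °C, run from -5.28 to -0.82.

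Together the 6 miRNAs took 27, 49 and 5 reads at 42 °C, against 51, 120 and 93 at 37 °C. Per 1000000 reads other than bta-miR-1246 this was 435, 313 and 244 at 42 °C and 2149, 1597 and 1318 at 37 °C. The sum of their CPM was 210 ± 63.9 (SD, n = 3) at 42 °C and 753 ± 99.3 (SD, n = 3) at 37 °C, a ratio of 0.279. bta-miR-744 provided 96.3, 93.9 and 60% of these reads at 42 °C and 74.5, 68.3 and 77.4% at 37 °C. Each library at 42 °C held reads of 2 of the 6, against 5, 6 and 5 at 37 °C. At 42 °C these were bta-miR-744 with bta-miR-197 in replicates A and C, and bta-miR-744 with bta-miR-339b in replicate B.

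The 6 were also compared with each other by level within libraries, as a description. The absence of bta-miR-339a, bta-miR-769 and bta-miR-505 at 42 °C was part of their choice. Neighbouring pairs were set by mean level in the same 6 libraries. Nothing about the order is therefore concluded from the p values below. CPM counts each mature miRNA with no correction for length, which hardly differs among miRNAs, while adaptor ligation is known to favour some sequences over others. By mean over the 6 libraries the order was bta-miR-744 (368 CPM), bta-miR-197 (58.8), bta-miR-339a (19.4), bta-miR-769 (19.3), bta-miR-505 (12.3) and bta-miR-339b (3.75). At 42 °C bta-miR-339b (5.53 CPM, from 3 reads in 1 library) came next after bta-miR-197, above the 3 miRNAs without a read. At 37 °C it was last (1.96 CPM). Its totals lie within the limit of 3 reads, so no change of order with temperature is read from this. bta-miR-744 was above bta-miR-197 in 6 of 6 libraries, by 2.69 ± 1.46 (SD, n = 6) on the log2(CPM + 10) scale (exact two-sided sign-flip permutation test, p = 0.031, the smallest that 6 libraries allow; adjusted p = 0.16 over 5 pairs). bta-miR-197 was above bta-miR-339a in 5 libraries and tied at 0 in the other, by 1.16 ± 0.91 (SD, n = 6; exact permutation test, p = 0.062, the smallest that 1 tie leaves; adjusted p = 0.16). The differences of bta-miR-339a over bta-miR-769 (0.16 ± 0.81, SD, n = 6), of bta-miR-769 over bta-miR-505 (0.08 ± 0.64) and of bta-miR-505 over bta-miR-339b (0.54 ± 1.29) were smaller than their SD. With 3, 3 and 2 libraries tied at 0, the exact test could not go below p = 0.25, 0.25 and 0.125 for these pairs, so it says nothing about them. With these ties no pair could pass the correction, whatever the size of its difference.

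Across the 6 libraries, the 5 miRNAs that passed the filter had Pearson correlations with each other from 0.39 (bta-miR-744 and bta-miR-197) to 0.94 (bta-miR-339a and bta-miR-505) on the log2(CPM + 10) scale, over 10 pairs. These values, and those that follow, describe libraries that share their depth and scale and fall into 2 temperatures, so each takes in the difference that chose the miRNAs. The miRNA most like bta-miR-744 was bta-miR-22-5p (r = 0.95), with 18, 45 and 1 reads at 42 °C, against 22, 52 and 58 at 37 °C. Next came bta-miR-424-3p (r = 0.91). As for bta-miR-744, replicate C at 42 °C was the lowest library of bta-miR-22-5p, at 28.7 CPM. Those most like bta-miR-197 were bta-miR-92b (r = 0.94), with 223, 205 and 373 CPM at 42 °C and 340, 382 and 480 CPM at 37 °C, and bta-miR-7 (r = 0.92). In contrast to bta-miR-744, bta-miR-197 and bta-miR-92b were highest in replicate C among the libraries at 42 °C. That library held only 2 reads of bta-miR-197 and 3 of bta-miR-744. The Poisson intervals of both there overlapped those of the other libraries at 42 °C.

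For the miRNAs without a read at 42 °C, the closest patterns were those of miRNAs with few reads. They were bta-miR-758 (r = 0.995) and bta-miR-409a (r = 0.990) for bta-miR-339a, and bta-miR-494 (r = 0.996) and bta-miR-485 (r = 0.972) for bta-miR-505, all with no read at 42 °C. For bta-miR-769 they were bta-miR-15b (r = 0.983), with 3, 3 and 1 reads at 42 °C, against 12, 16 and 7 at 37 °C, followed by bta-miR-323b-3p (r = 0.972). bta-miR-15b had its highest level in replicate A at 37 °C and its lowest level at that temperature in replicate C, as bta-miR-769 did.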

How the data were processed

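Small RNA of EVs was measured in 6 libraries, 3 at 42 °C and 3 at 37 °C. After trimming, the authors counted reads against miRBase release 22 in CLC Genomics Workbench 21 and deposited a TMM-adjusted signal per miRNA (their CPM). Columns do not sum to 1000000. The submitters' processing notes also name bcl2fastq, Bowtie2 2.2.2, DESeq2 and ARS-UCD1.2, without roles. The smallest value of a library was taken as 1 read, and 100% of nonzero values came out as whole reads.

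limma 3.58.1 (R 4.3.3) was run on log2(CPM + 10) with an intensity trend and Benjamini-Hochberg adjustment over 251 miRNAs (mean in either group 10 CPM or more). edgeR 4.0.16 and DESeq2 1.42.0 on the recovered reads were alternatives. Fold changes on the log2(CPM + 10) scale understate those of miRNAs with few reads. The scripts were tested on simulated data. Intervals are exact (scipy 1.17.1). Pairs of miRNAs were compared by sign-flip permutation (numpy 2.4.6). The rule for named miRNAs took the 6, the 2 most correlated with each of the 5 that passed the filter, and marker lists by sums; its part on shared seeds was not used here. The miRNAs and lists were chosen with earlier results of these data known. The gene around MIR505 is not reported here.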

Additional observations from a re-analysis of the deposited data

How the results depend on the processing

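The log2 fold changes of the 5 miRNAs that passed the filter were below 0 under every alternative run, which the choice largely fixed. The 6 calls over all miRNAs became 20 when libraries were scaled to sum to 1000000, 15 with bta-miR-1246 left out of that sum, 10 with a minimum mean of 50 CPM, 10 without the intensity trend, 11 in edgeR and 17 in DESeq2, and from 1 (without replicate B at 37 °C) to 9 with 1 library left out. The count of the 5 among limma's calls, from which nothing is read, was 0 on the deposited values with the trend and 1 without it, 2 on the first of these scales and 1 on the second. With a minimum mean of 50 CPM, 2 of the 5 remained to be counted as not overlapping, which the choice fixed. The share over all miRNAs at that minimum was not computed, so nothing is read from this count. The ratio of summed levels of 0.279 became 0.182 on the first scale and 0.196 on the second. Leaving out 1 library turned the order of bta-miR-339a over bta-miR-769 (-0.040 to 0.42, below 0 without replicate C at 37 °C) and of bta-miR-769 over bta-miR-505 (-0.12 to 0.28, below 0 without replicate A at 37 °C). With the letters as a replicate block 15 miRNAs were called, none of them of the 5; same-lettered libraries correlated at -0.06 to 0.03 in their deviations from the group means, and none correlated best with its own letter. Summing the miR-339 copies, chosen after seeing the data, gave 9 calls. The depth limits bta-miR-339a, bta-miR-769, bta-miR-505 and bta-miR-339b, with at most 15 reads over 3 libraries. The cause of these shifts was not tested.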
